A study of Mus musculus with 15 samples.

Results

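BLA-A and BLU-A are gold nanoparticles made with blackberry extract (BLA) and with blueberry extract (BLU). Bulk RNA-seq of 4T1 cells treated with BLA-A was compared with that of 4T1 cells treated with BLU-A. The 6 columns of the count table that the labels assign to BLA-A and BLU-A were taken, of 15 columns in all. 4T1 is a mouse mammary carcinoma cell line that grows in culture without other cell types. There were 5 conditions, which were no treatment, each extract alone and each kind of particle, all at one shared concentration, and treatment began 24 hours after seeding. The labels do not give how long the cells were treated before RNA was extracted. No animal, transgene or deletion was involved, and every group shared the same parental line. Each condition was 1 sequenced library, from which the study drew the 3 columns as subsets of reads, so the columns were averaged and the 2 conditions were compared as 2 libraries. The differences below have no replicate check and no p-value, and they describe these libraries.

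Cultured carcinoma cells take up metal particles mainly through endocytosis, and the particles then pass through endosomes and lysosomes. Cells answer many stimuli within minutes by switching on immediate early genes, such as those of the AP-1, Egr and Klf families, while slower programs adjust metabolism, protein folding and redox balance. Berry extracts are rich in polyphenols, including anthocyanins, which can bind metal ions and act on redox balance. The comparison asks how the transcriptome of the same cells differed when the berry used to make the particle differed.

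The averaged libraries held 25613778 counts for BLA-A and 25721345 for BLU-A, and the other 3 held between 25778154 and 26956442. Genes with more than 3 counts numbered 18647 with BLA-A, 21599 with BLU-A, 19693 with BLA, 21534 with BLU and 23155 untreated. The TMM factor was 0.905 for BLA-A and between 1.01 and 1.03 for the rest. How far the smaller number of detected genes in BLA-A enters the calls of low genes was not tested. BLA-A stood apart from the other 4 libraries. Its Pearson correlation of log2 CPM across genes was 0.942 to 0.953 with the others, while the other 6 pairs of libraries lay between 0.956 and 0.977. These correlations are across 17647 genes, which are not independent replicates. BLA-A lay within the range spanned by the untreated, BLA and BLU libraries for 34.8% of genes, and BLU-A did so for 66.4%. Gm26917, a predicted gene for which no gene model was matched, took 7.84% of all BLA-A counts and 5.28% of all BLU-A counts. Mammary epithelial markers were present in both libraries, with 9 of 12 past the filter on low counts, and their summed level was 1952 CPM with BLA-A and 1217 with BLU-A. Krt5, a basal keratin, was listed at 0 in both, and Krt14 and Elf5 were under 1 CPM in all 5 libraries. The summed level of 9 fibroblast markers was 101 CPM with BLA-A and 94.6 with BLU-A, carried by Pdgfra at 98.2 against 92.2 CPM. Leukocyte markers summed to 30.5 and 19.3 CPM, mostly Cd14 at 20.4 against 9.70 CPM, endothelial markers to 4.18 and 8.41 CPM, with Tek at 1.16 against 3.77 CPM and Esam at 0.259 against 1.51 CPM, and adipocyte markers to 0.949 and 0.755 CPM. In bulk RNA, fewer cells of a kind and less RNA per cell cannot be told apart.

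Of 40402 genes in the table, 17647 reached 1 CPM in at least 1 of the 5 libraries and were compared. CPM are counts per 1000000 counts of the library after TMM scaling, and ratios are log2 of (CPM + 0.5) in BLA-A over BLU-A, which understates the difference of low genes. A gene was called when its log2 ratio was over 1 in size. By this rule 3380 genes (19.2%) separated the preparations, of which 1532 (8.68%) were higher and 1848 (10.5%) lower in BLA-A. A log2 ratio over 2 in size was reached by 401 genes, 217 higher and 184 lower. The split between the directions moved with the level of expression. Among genes under 1 CPM on average, 90 were higher and 557 lower, and from 1 to 10 CPM the counts were 516 and 857. Genes from 10 to 100 CPM gave 699 higher and 375 lower, and genes above 100 CPM gave 227 and 59. With a mean of at least 10 CPM required, 1360 of 9802 genes (13.9%) were called, 926 higher (9.45%) and 434 lower (4.43%). The split also moved with the scaling. With total counts in place of TMM the log2 ratios shifted by -0.18, and 1085 genes were called higher and 2468 lower. Leaving Gm26917 out of the totals gave 1189 and 2364, and leaving out mitochondrial, ribosomal protein and abundant small RNA genes gave 1242 and 2277.

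**Figure D1:**
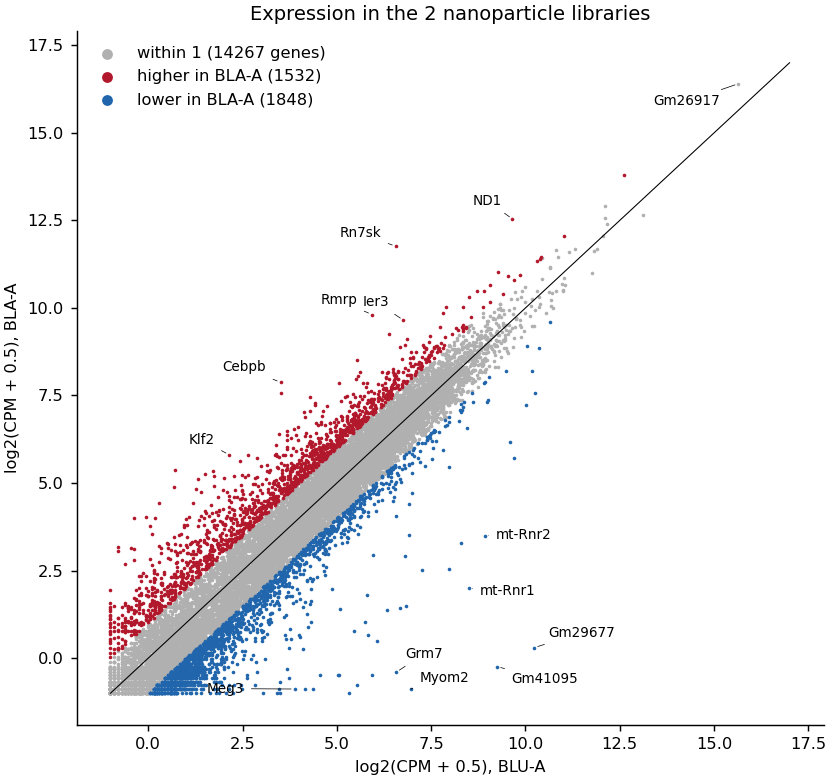
Expression in the BLU-A library (horizontal axis) and the BLA-A library (vertical axis), each as log2(CPM + 0.5), with 1 point per gene for 17647 genes and the line of equal level. The 1532 genes called higher in BLA-A are red, the 1848 called lower are blue, and the named outliers at the lower edge, such as Gm41095 and Myom2, were at or near 0 in BLA-A.

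The other 3 libraries show which of the nanoparticle libraries departed from the rest. Of the 1532 genes called higher in BLA-A, 1458 lay above the range of the untreated, BLA and BLU libraries in BLA-A, and 937 lay within that range in BLU-A. Of the 1848 genes called lower, BLA-A lay below the range for 1514, and BLU-A lay within it for 1082 and above it for 622. The genes called were thus mostly those in which BLA-A departed from the other libraries, and a smaller group was high in BLU-A.

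Among genes with a mean of at least 10 CPM, the largest log2 ratio was that of Rn7sk. Rn7sk is the small nuclear RNA that holds the elongation factor P-TEFb inactive, and it lies on chromosome 9, 78082585 to 78082915 (GRCm39). It was at 3470.3 CPM with BLA-A, 93.7 with BLU-A, 75.7 with BLA, 58.7 with BLU and 91.4 untreated, a log2 ratio of 5.20. Cebpb, a leucine zipper transcription factor of inflammation and differentiation with a single exon on chromosome 2, 167530835 to 167532338, was at 235 CPM with BLA-A, 10.9 with BLU-A, 11.4 with BLA, 14.3 with BLU and 14.5 untreated. Its log2 ratio of 4.37 had a 95% interval of 4.26 to 4.61 from counting error, computed on the counts without the added 0.5, and such intervals cover counting error only. The 3 columns held 5426, 5453 and 5428 Cebpb counts for BLA-A and 287, 289 and 287 for BLU-A, which shows how closely the read subsets of 1 library agree. Rmrp, the RNA of the ribonuclease MRP, was at 898 against 60.3 CPM, given as BLA-A against BLU-A here and throughout, and Klf2, a zinc finger transcription factor, at 55.5 against 3.92 CPM. Rpph1, the RNA of ribonuclease P, was called at 2572 against 1272 CPM, and its log2 ratio of 1.02 was also that of BLA over BLU. The protease gene Pcsk5 was at 21.3 against 0.717 CPM, the bone morphogenetic protein gene Bmp6 at 27.8 against 1.92 CPM, Ccdc158 at 28.9 against 1.09 CPM and the histone gene H3c1 at 37.5 against 2.34 CPM. The other 4 of the 12 highest ratios belonged to predicted genes, which were Gm42252 (4.65), Gm40009 (4.05), Gm14164 (3.78) and Gm31834 (3.62). For each of these 12 genes the untreated, BLA and BLU libraries lay far below BLA-A, as BLU-A did. Cebpb overlaps Peds1 and Klf2 overlaps Eps15l1 on the opposite strand, and Bmp6 and Gm31834 both overlap Txndc5, so their values rest on the strand-specific counting.

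The lowest ratios came in 2 patterns. In the first, the gene was high in BLU-A alone. Gm29677, a predicted long noncoding RNA, was at 0.733 CPM with BLA-A, 1204 with BLU-A, 6.17 with BLA, 3.66 with BLU and 6.90 untreated, a log2 ratio of -9.93. Gm41095, a predicted long noncoding RNA on chromosome 14, 14022727 to 14090697, was at 0.345 CPM with BLA-A, 609 with BLU-A, 1.43 with BLA, 0.254 with BLU and 0.488 untreated. Myom2, which encodes a protein of the sarcomere M-band and lies on chromosome 8, 15107272 to 15183541, held 1 count in BLA-A and 3281 in BLU-A, and it was at 1.20 CPM in untreated cells, 0 in BLA and 0.798 in BLU. Its log2 ratio of counts had a 95% interval of -16.79 to -9.01. Dcaf12l2, a single-exon gene on chromosome X, 43454335 to 43457219, held 0 counts in each of the other 4 libraries and 1055 in BLU-A, which was at least 308-fold lower in BLA-A against a floor of 3 counts in that library. Gm29571 (0.0863 against 45.9 CPM) and the imprinted long noncoding RNA Meg3 (0.0431 against 14.3 CPM) were also high in BLU-A alone. Grm7, a glutamate receptor gene, was at 0.259 CPM with BLA-A, 95.0 with BLU-A, 0.954 with BLA, 2.72 with BLU and 3.60 untreated, and Gm40271 at 0.906 CPM with BLA-A, 66.3 with BLU-A, 1.91 with BLA, 4.83 with BLU and 11.3 untreated. Zfyve28 was at 32.4 CPM in BLU-A, 0.216 in BLA-A and 1.99, 0 and 5.62 in untreated, BLA and BLU.

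In the second pattern the gene was low in BLA-A alone. The mitochondrial ribosomal RNA mt-Rnr1 was at 3.49 CPM with BLA-A, 360.4 with BLU-A, 341 with BLA, 436 with BLU and 414 untreated, a log2 ratio of -6.50. mt-Rnr2, the other mitochondrial ribosomal RNA, was at 10.8 CPM with BLA-A and 483 with BLU-A. Ribosomal RNA was depleted enzymatically when the libraries were made, so both levels are what that step left. Gm53756, a predicted gene, was at 5.31 CPM with BLA-A, 252 with BLU-A, 386 with BLA, 299 with BLU and 382 untreated. Dok6, an adaptor of receptor tyrosine kinases, was at 0.216 against 32.5 CPM and between 38.3 and 40.5 CPM in the other 3 libraries. Rpl13-ps6, a ribosomal protein pseudogene whose reads can be split with its parent gene, was at 0.216 against 61.0 CPM. At least 100 counts in one nanoparticle library and at most 3 in the other were found for 18 genes in the direction of BLU-A, Gm33292 (0.0431 against 20.3 CPM) and Gm10338 (0.0431 against 17.5 CPM) among them. The opposite direction held 2 genes, Gm9234 (7.81 against 0.0755 CPM) and Gm33636 (8.58 against 0.0755 CPM).

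In terms of CPM, 8 genes accounted for the largest differences in each direction. Higher in BLA-A were Gm26917 (86607 against 51212 CPM), COX1, ND1, Rn7sk, the fibronectin gene Fn1 (7628 against 4379 CPM), CYTB, the cytoplasmic actin gene Actb (6044 against 4405 CPM) and the pyruvate kinase gene Pkm (2819.9 against 1365 CPM). Gm26917, Fn1 and Actb were not called, with log2 ratios of 0.76, 0.80 and 0.46. Lower in BLA-A were the translation elongation factor gene Eef1a1 (6465 against 8859 CPM), the intermediate filament gene Vim (2051 against 3472 CPM), Gm29677, Cmss1 (189.8 against 1222 CPM), Filip1l (149 against 1034 CPM), the RNA-binding protein gene Hnrnpa2b1 (294 against 1164 CPM), the histone gene H4c4 and the topoisomerase gene Top2a (769 against 1614 CPM). Eef1a1 and Vim were not called, at -0.45 and -0.76. Cmss1 and Filip1l overlap on opposite strands, so their reads are separate only as far as the strand of the reads was kept.

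Lists of genes with a shared role were described by the number of members called and by their median log2 ratio, beside a median of -0.08 over all 17647 genes and the shares of 8.68% higher and 10.5% lower. Of 52 lists with a tested member, 36 had a median above 0, and 32 did so with scaling by total counts. Length and base composition of genes moved with the ratios, as described further on, and each list was therefore also read after the ratios were centred within classes of gene length and GC content. That setting and the one without mitochondrial and ribosomal protein genes were chosen after seeing the data.

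**Figure D2:**
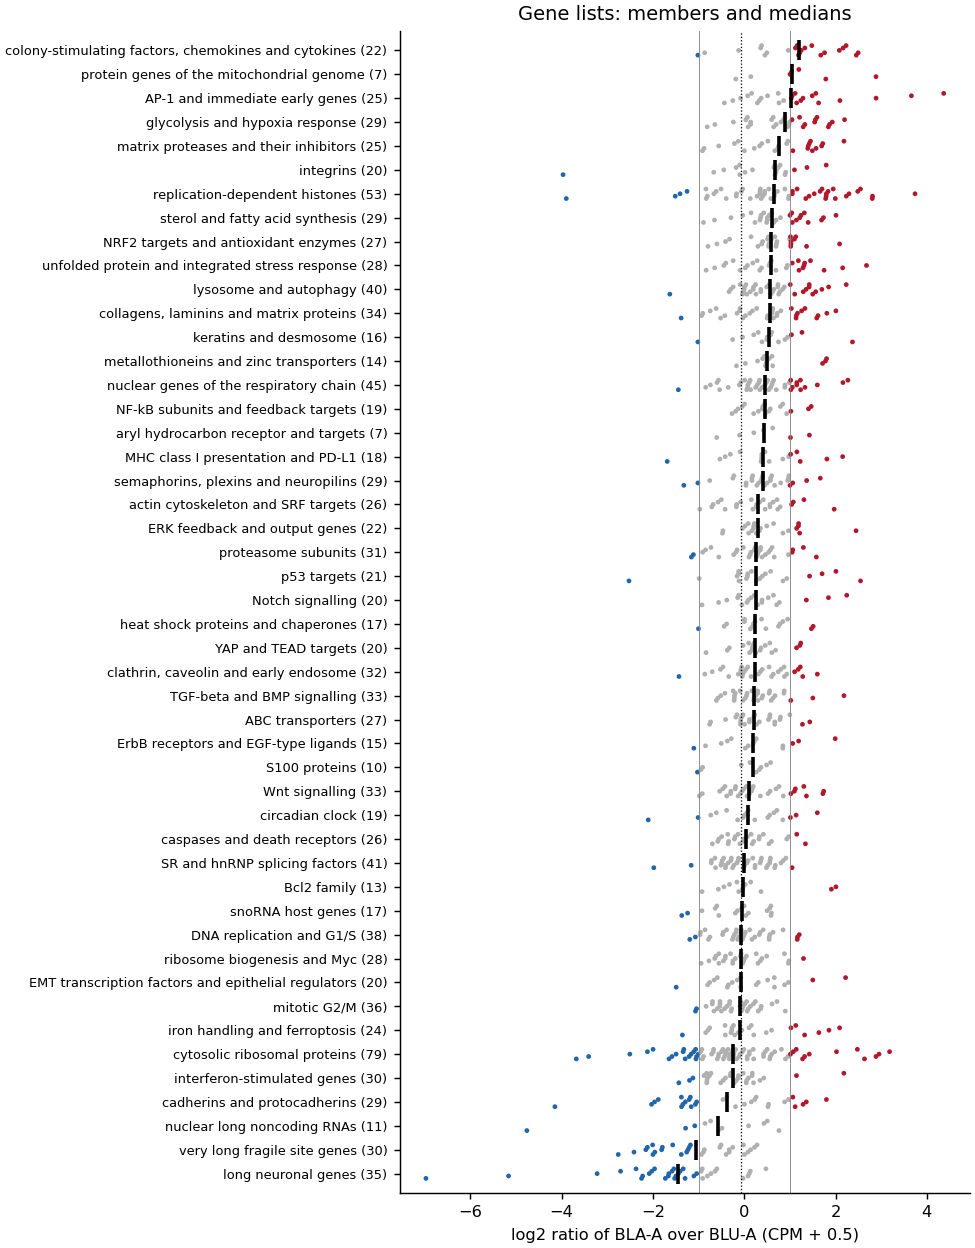
Log2 ratio of BLA-A over BLU-A (horizontal axis) for the tested members of gene lists with at least 5 tested members, 1 row per list with the number tested in brackets. Red and blue points are past 1 in size, black bars are list medians, and the dotted line is the median of all genes at -0.08. Medians ran from 1.20 for cytokines to -1.45 for long neuronal genes.

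AP-1 and immediate early genes, which encode the first transcription factors and feedback proteins made after a stimulus, had 13 of 25 tested members higher in BLA-A past the threshold and 0 lower. Their median log2 ratio was 1.03, and 0.84 after centring, beside 0.10 for BLA over BLU. Cebpb and Klf2 led the list. Ier3, an early response gene of cell survival, was at 804 CPM with BLA-A, 108 with BLU-A, 94.0 with BLA, 64.1 with BLU and 125 untreated, a log2 ratio of 2.89 with an interval of 2.84 to 2.95. Zfp36, whose protein speeds the decay of AU-rich messages, was at 185 CPM with BLA-A, 42.9 with BLU-A, 31.7 with BLA, 29.5 with BLU and 37.9 untreated. For both genes BLA-A was the highest of the 5 libraries, and BLU-A lay near the untreated level. ERK feedback and output genes had 5 of 22 higher and 0 lower, with a median of 0.30. Dusp1, a phosphatase that switches off MAP kinases, was at 146 CPM with BLA-A, 26.4 with BLU-A, 39.3 with BLA, 25.3 with BLU and 35.3 untreated. The ERK inhibitor gene Spry2 was at 75.0 against 32.1 CPM, Phlda1 at 107 against 46.7 CPM and Areg, an EGF receptor ligand, at 166 against 72.6 CPM. Ccnd1, the cyclin of G1 entry, was at 1145 against 1019 CPM and was not called. Among NF-kB subunits and feedback targets 3 of 19 were higher and 0 lower. They were the inhibitor genes Nfkbia (134 against 50.1 CPM) and Nfkbib (25.5 against 8.90 CPM) and the mitochondrial superoxide dismutase gene Sod2 (51.3 against 25.0 CPM), while the subunit gene Nfkb1 stood at 261 against 197 CPM.

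Secreted immune factors had the highest median of the lists, 1.20 over 22 tested members of 28, and 1.17 after centring. For BLA over BLU the median was 0.04. Of the tested members, 14 were higher in BLA-A past the threshold and 1 was lower. Ccl2, a chemokine that draws monocytes, was at 27.2 CPM with BLA-A, 4.41 with BLU-A, 2.50 with BLA, 5.41 with BLU and 3.75 untreated. Lif, a cytokine of the interleukin 6 family, was at 180.2 CPM with BLA-A, 38.0 with BLU-A, 50.0 with BLA, 43.1 with BLU and 51.4 untreated, a log2 ratio of 2.23 with an interval of 2.15 to 2.35. Csf3, the granulocyte colony-stimulating factor, which 4T1 tumours are known to secrete, was at 233 CPM with BLA-A, 51.5 with BLU-A, 53.7 with BLA, 44.6 with BLU and 66.6 untreated, a log2 ratio of 2.17. In all 3 genes BLA-A stood above the other 4 libraries and BLU-A did not. Ccl20 was at 6.17 against 0.717 CPM on 19 counts in BLU-A, and Csf1, the macrophage growth factor, at 273 against 125 CPM. Il1b, encoding interleukin 1 beta, was the member lower in BLA-A, at 0.475 against 1.47 CPM. The summed level of the list was 2041 CPM in BLA-A and between 905 and 1011 CPM in the other 4 libraries. Leukocytes also make these factors, and the leukocyte markers above moved with the list through Cd14, while Ptprc, which defines leukocytes, was at 0.302 against 0.377 CPM and Lyz2 was at 0 in all 5 libraries. Interferon-stimulated genes had 2 of 30 higher (6.67%), 3 lower (10%) and a median of -0.26. These shares lay near the 8.68% and 10.5% of all genes. Bst2, which tethers virions, was at 7.25 against 1.21 CPM and the ubiquitin-like gene Isg15 at 3.11 against 1.13 CPM, while Usp18 was at 1.16 against 4.00 CPM, Ifi44 at 0.604 against 2.04 CPM and Gbp7 at 1.34 against 3.51 CPM. Trim25 had the highest mean of the list, at 79.1 against 58.7 CPM, and was not called.

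**Figure D3:**
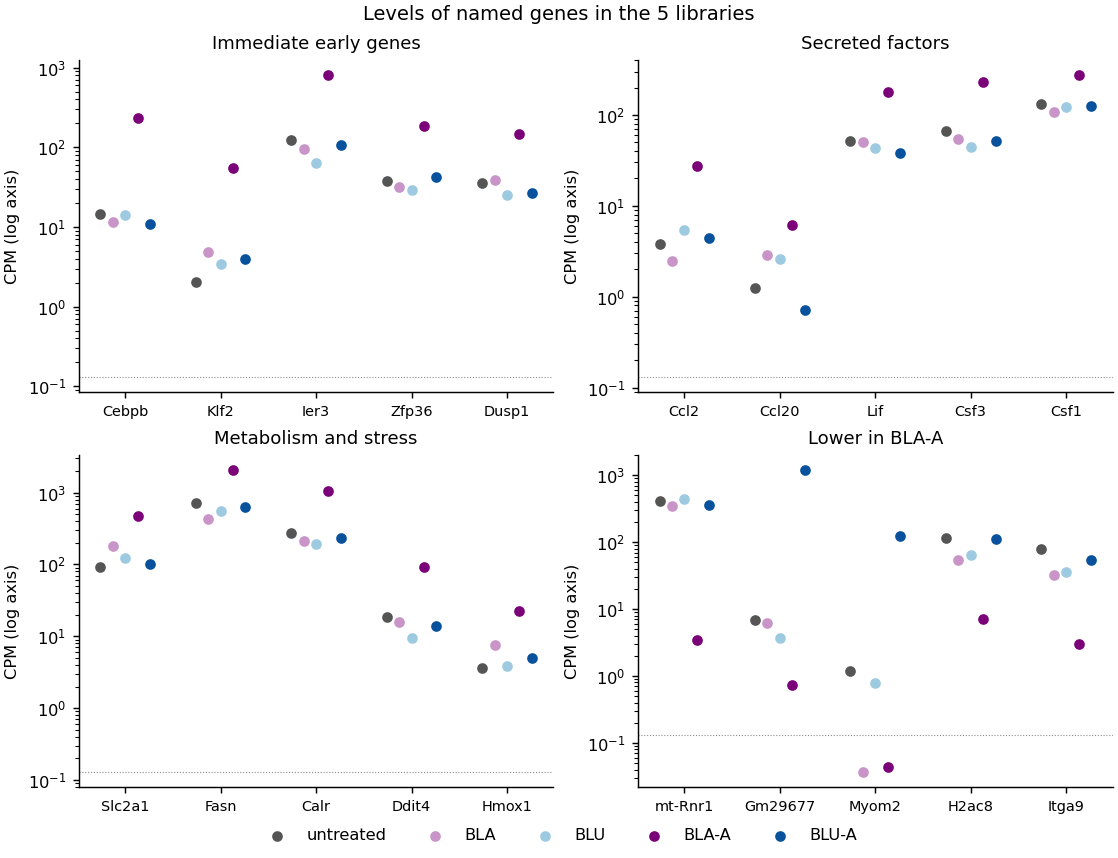
CPM (log axis) of named genes in the 5 libraries, 1 point per gene and library. The dotted line is the level of 3 counts, and levels under 1 count are drawn at 1 count, as for Myom2 in BLA (0 counts). BLA-A is the highest point for the immediate early, secreted, metabolic and stress genes shown and the lowest for 4 of the 5 genes in the last panel, with Myom2 at 0 in BLA and 1 count in BLA-A.

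Glycolysis and hypoxia response genes had 11 of 29 members higher in BLA-A, 0 lower, and a median of 0.89 (0.74 after centring). Slc2a1, the glucose transporter GLUT1, was at 471 CPM with BLA-A, 102 with BLU-A, 179 with BLA, 123 with BLU and 91.4 untreated, a log2 ratio of 2.20 with an interval of 2.14 to 2.26. P4ha2, a prolyl hydroxylase of collagen, was at 45.3 CPM with BLA-A, 12.3 with BLU-A, 22.7 with BLA, 10.5 with BLU and 10.4 untreated. Both genes were also higher in BLA than in BLU. The carbonic anhydrase gene Car9 was at 14.3 CPM with BLA-A, 3.40 with BLU-A, 10.4 with BLA, 4.35 with BLU and 3.23 untreated, and Adm, which encodes adrenomedullin, was at 2.98 against 0.453 CPM. Pkm was called at 1.05. The median of this list was 0.49 for BLA over BLU, and 5 of its members were past the threshold there, against 4.23% of all genes. The promoters of 4 members are shown because the hypoxia-inducible factor binds the core letters ACGTG, and 3 of these genes were called. Sequences are from RefSeq on GRCm38.p6, 120 bases upstream of the start each, chosen to hold the match and read along the gene, with matches on either strand in capitals.
Slc2a1, chr4:119108625-119108744, plus strand: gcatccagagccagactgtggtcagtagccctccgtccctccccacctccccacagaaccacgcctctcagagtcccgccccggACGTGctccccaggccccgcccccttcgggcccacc
P4ha2, chr11:54100788-54100907, plus strand: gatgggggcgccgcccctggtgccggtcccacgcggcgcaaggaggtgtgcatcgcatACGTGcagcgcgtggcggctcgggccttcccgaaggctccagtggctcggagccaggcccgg
Bnip3, chr7:138909552-138909671, minus strand: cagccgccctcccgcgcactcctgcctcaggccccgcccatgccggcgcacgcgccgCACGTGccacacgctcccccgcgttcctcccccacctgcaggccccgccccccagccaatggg
Ldha, chr7:46845657-46845776, plus strand: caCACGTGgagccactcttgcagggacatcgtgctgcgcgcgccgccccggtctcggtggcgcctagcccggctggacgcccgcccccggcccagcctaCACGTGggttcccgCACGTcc
Slc2a1, P4ha2 and Bnip3 were called, and Ldha, the lactate dehydrogenase A gene, had a log2 ratio of 0.99 just inside the threshold. ACGTG was found in the windows, from 250 bases before to 50 after the start, of 21 of 29 list genes with a RefSeq window and of 21.8% of all 27025 genes. It was present in 7 of the 10 list genes called higher and in 14 of the 19 others, so its presence did not separate the members called from the rest.

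Unfolded protein and integrated stress response genes, which include chaperones of the endoplasmic reticulum, had 10 of 28 higher, 0 lower and a median of 0.58 (0.74 after centring). The ratio was above 0 for 22 of the 28. Members within the threshold included Ddit3 (-0.09), Asns (-0.24), Phgdh (-0.65), Psat1 (0.28) and Nupr1 (0.07). Calr, the calcium-binding chaperone calreticulin on chromosome 8, 85567946 to 85573667 of GRCm39, was at 1049 CPM with BLA-A, 235 with BLU-A, 215 with BLA, 193 with BLU and 270.1 untreated, a log2 ratio of 2.16 with an interval of 2.12 to 2.20. Ddit4, an inhibitor of mTORC1, was at 92.5 CPM with BLA-A, 14.0 with BLU-A, 15.6 with BLA, 9.58 with BLU and 18.3 untreated. Pdia4, a disulfide isomerase of the same compartment, was at 227 against 67.2 CPM and the amino acid transporter gene Slc3a2 at 144 against 52.3 CPM. Hspa5, the main chaperone of the compartment and a standard marker of this response, went the other way without passing the threshold, at 1611 CPM with BLA-A, 2132 with BLU-A, 2395 with BLA, 1911 with BLU and 2481 untreated. The endoplasmic reticulum stress element, searched on both strands as CCAAT, then 9 bases of any kind, then CCACG, was in the windows of 5 of 27 list genes and of 0.137% of all genes. The promoters of 4 of these genes are shown to set the same element beside opposite ratios, from the same source and in the same notation.
Calr, chr8:84847025-84847144, minus strand: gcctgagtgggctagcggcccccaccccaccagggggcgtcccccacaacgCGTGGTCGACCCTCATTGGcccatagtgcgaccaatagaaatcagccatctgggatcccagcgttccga
Creld2, chr15:88819469-88819588, plus strand: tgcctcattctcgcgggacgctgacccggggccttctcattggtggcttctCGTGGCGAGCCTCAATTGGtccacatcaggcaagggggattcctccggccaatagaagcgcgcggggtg
Pdia6, chr12:17266440-17266559, plus strand: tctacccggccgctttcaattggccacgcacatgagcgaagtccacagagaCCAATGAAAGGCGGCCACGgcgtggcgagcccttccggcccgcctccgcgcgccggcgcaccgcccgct
Hspa5, chr2:34771970-34772089, plus strand: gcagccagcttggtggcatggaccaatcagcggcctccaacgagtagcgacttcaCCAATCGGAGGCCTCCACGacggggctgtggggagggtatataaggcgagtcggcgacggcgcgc
Calr, Creld2 (1.18) and Pdia6 (1.20) were called higher, while Hspa5 (-0.40) and Hsp90b1 (0.38), the other gene with the element, were not. The element was thus in 3 of 10 called members and in 2 of the 17 others. The letters ACGTG can overlap its CCACG end and were counted separately. Heat shock proteins and related chaperones had 2 of 17 higher and 1 lower. Serpinh1, whose collagen chaperone works in the endoplasmic reticulum, was at 456 against 164 CPM and the stress-inducible cytosolic Hspa1b at 53.7 against 18.5 CPM, while the mitochondrial chaperonin gene Hspd1 was at 259.7 against 521 CPM. Hsp90ab1 was at 3238 against 1800.2 CPM and was not called. The AP-1 site TGANTCA was in none of the windows of 20 immediate early genes and in 8.97% of all genes, and the antioxidant core TGACNNNGC was in 10 of 23 NRF2 target genes and in 14.0% of all genes. These matches say only which letters stand in these windows.

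Sterol and fatty acid synthesis genes had 11 of 29 higher and 0 lower, with a median of 0.60 (0.71 after centring). Fasn, the fatty acid synthase gene, was at 2070.1 CPM with BLA-A, 622 with BLU-A, 434 with BLA, 559 with BLU and 720.3 untreated, a log2 ratio of 1.74. Srebf1, which encodes the transcription factor that drives Fasn, was at 254 CPM with BLA-A, 78.3 with BLU-A, 73.0 with BLA, 65.6 with BLU and 73.6 untreated. Mvd, an enzyme of cholesterol synthesis, was at 29.6 against 6.98 CPM. Scd2, the member with the highest mean, was at 3282 against 2564 CPM and was not called. For BLA over BLU the median of this list was -0.22.

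NRF2 targets and antioxidant enzymes had 8 of 27 higher, 0 lower and a median of 0.59. Hmox1, the heme oxygenase 1 gene, was at 22.6 CPM with BLA-A, 4.94 with BLU-A, 7.53 with BLA, 3.92 with BLU and 3.60 untreated. The pentose phosphate genes Pgd (191 against 73.8 CPM) and G6pdx (179 against 83.5 CPM) and the cystine transporter gene Slc7a11 (136 against 61.8 CPM) were called, while Tkt, of the same pathway as Pgd, was at 389 against 351 CPM. Aryl hydrocarbon receptor targets had 2 of 7 higher, the quinone reductase gene Nqo1 (26.3 against 12.8 CPM) and the repressor gene Ahrr (3.28 against 0.906 CPM), and Tiparp was at 188 against 139.9 CPM. Metallothioneins and zinc transporters had 3 of 14 higher. Mt2, which binds zinc and copper, was at 31.8 CPM with BLA-A, 8.75 with BLU-A, 12.9 with BLA, 16.0 with BLU and 18.3 untreated. The zinc importer gene Slc39a1 was at 145 CPM with BLA-A, 42.0 with BLU-A, 26.9 with BLA, 38.2 with BLU and 46.8 untreated, and the exporter genes Slc30a1 and Slc30a4 were at 4.49 against 1.02 CPM and 237 against 154 CPM, the last one not called. Mt2 in BLU-A was the lowest of the 5 libraries and in BLA-A the highest. Of the iron handling and ferroptosis genes 6 of 24 were higher and 1 was lower, at a median of -0.09. The ferrireductase gene Steap3 (27.5 against 7.24 CPM), Lpcat3 (87.9 against 28.0 CPM) and Chac1 (39.9 against 15.7 CPM) were higher. The iron exporter gene Slc40a1 was lower at 1.55 against 4.75 CPM, and ferritin heavy chain, Fth1, was at 1259 against 1307 CPM.

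Lysosome and autophagy genes had 11 of 40 higher, 1 lower and a median of 0.56. Psap, the precursor of the saposins that help lysosomal lipid breakdown, was at 549 CPM with BLA-A, 116 with BLU-A, 107 with BLA, 116 with BLU and 136 untreated, a log2 ratio of 2.23. Map1lc3a, which marks autophagosomes, was at 16.8 CPM with BLA-A, 4.30 with BLU-A, 1.62 with BLA, 5.44 with BLU and 6.27 untreated. The sialidase gene Neu1 was at 26.0 against 7.66 CPM and the cholesterol exporter gene Npc1 at 62.5 against 20.8 CPM. Gabarapl2, a relative of Map1lc3a in the same pathway, was lower at 11.3 CPM with BLA-A, 36.0 with BLU-A, 17.4 with BLA, 27.9 with BLU and 34.8 untreated. The protease gene Ctsl was at 1395 against 838 CPM and was not called. In the clathrin, caveolin and early endosome list 5 of 32 were higher and 1 was lower. Lrp1, a large endocytic receptor, was at 1441 CPM with BLA-A, 475 with BLU-A, 599 with BLA, 505 with BLU and 532 untreated. The caveolar coat gene Cavin1 was at 478 against 197 CPM, the adaptor subunit gene Ap2s1 at 34.3 against 14.4 CPM, Rab5c at 129 against 56.4 CPM and Amph at 0.259 against 1.55 CPM. MHC class I presentation genes had 5 of 18 higher and 1 lower. Calr is also a member of this list and had its highest ratio. H2-K1 was at 288 CPM with BLA-A, 81.8 with BLU-A, 72.3 with BLA, 68.2 with BLU and 90.9 untreated, H2-D1 at 343 against 146 CPM and B2m, the shared light chain, at 706 against 317 CPM. H2-K1 and H2-D1 are close relatives, and reads can be split between them. The immunoproteasome gene Psmb8 was lower at 6.69 against 22.7 CPM, and Canx was at 848 against 619 CPM. Proteasome subunits had 4 of 31 higher and 2 lower. The catalytic ring genes Psmb6 (60.9 against 20.0 CPM), Psmb3 (57.6 against 23.2 CPM) and Psmb2 (116 against 55.1 CPM) and the cap gene Psmd3 (183 against 88.0 CPM) were higher. The cap genes Psmd6 (36.2 against 81.5 CPM) and Psmd7 (88.8 against 193 CPM) were lower, and Psmd1 was at 284 against 317 CPM.

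Matrix proteases and their inhibitors had 10 of 25 higher, 0 lower and a median of 0.75 (0.99 after centring). Mmp9, the gelatinase B gene, was at 582 CPM with BLA-A, 176 with BLU-A, 143 with BLA, 182 with BLU and 200.4 untreated, a log2 ratio of 1.72. The metalloprotease inhibitor gene Timp1 was at 77.1 against 23.5 CPM and Adamts1 at 113 against 37.8 CPM. Collagens, laminins and matrix proteins had 10 of 34 higher and 1 lower. Hspg2, the basement membrane proteoglycan perlecan, was at 1282 CPM with BLA-A, 365 with BLU-A, 424 with BLA, 345 with BLU and 407 untreated. The laminin gene Lama5 was at 1623 against 529 CPM and Sparc at 233 against 77.2 CPM. Col6a2 held 35 counts in BLA-A and 0 in BLU-A, at least 13.3-fold higher against a floor of 3 counts in BLU-A. The fibrillin gene Fbn1 was lower at 0.820 against 2.94 CPM.

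Integrins had 3 of 20 higher, 1 lower and a median of 0.67. The laminin receptor subunit gene Itga3 was at 1909 CPM with BLA-A, 736 with BLU-A, 589 with BLA, 623 with BLU and 756 untreated. Itgb7 was at 13.8 against 3.62 CPM and the integrin-linked kinase gene Ilk at 99.2 against 46.0 CPM. Itga9, a subunit that binds tenascin and osteopontin, was low in BLA-A alone, at 3.02 CPM with BLA-A, 54.7 with BLU-A, 32.2 with BLA, 36.0 with BLU and 80.1 untreated, a log2 ratio of -3.97. It spans 294351 bases on chromosome 9, 118435722 to 118730072. Keratins and desmosome genes had 3 of 16 higher and 1 lower. Krt19 was at 45.0 CPM with BLA-A, 8.30 with BLU-A, 18.0 with BLA, 11.4 with BLU and 11.5 untreated, Krt8 at 434 against 212 CPM and Krt80 at 51.6 against 21.2 CPM. Krt18, the partner of Krt8, was at 689 against 526 CPM, not called, and Krt10 was lower at 1.98 against 4.53 CPM. Among the epithelial markers Krt19, Krt8 and the tight junction gene Cldn4 (119 against 17.5 CPM) were called higher. Epcam was at 39.7 against 63.0 CPM and was not called. Epithelial regulators and EMT transcription factors had 2 of 20 higher (10%, beside 8.68% of all genes) and 1 lower. They were the epithelial factor gene Elf3 (15.0 against 2.83 CPM) and Sox9 (314 against 110.4 CPM), and the repressor gene Zeb1 was lower (1.38 against 4.79 CPM).

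Actin cytoskeleton and SRF target genes had 4 of 26 higher and 0 lower. Tagln2 was at 286 CPM with BLA-A, 72.6 with BLU-A, 63.6 with BLA, 66.9 with BLU and 81.8 untreated, Actg1 at 212 against 85.4 CPM, the actin crosslinker gene Flna at 1962 against 932 CPM and the profilin gene Pfn1 at 708 against 344 CPM. YAP and TEAD targets had 3 of 20 higher and 0 lower, with a median of 0.23. Ccn1, a matrix-associated signalling protein, was at 477 CPM with BLA-A, 202 with BLU-A, 165 with BLA, 175 with BLU and 214 untreated, the tissue factor gene F3 at 9.88 against 3.96 CPM and Tead2 at 90.0 against 40.4 CPM. Axl was at 989.9 against 672 CPM and was not called. TGF-beta and BMP genes had 3 of 33 higher (9.09%, beside 8.68% of all genes) and 0 lower. The ligand gene Tgfb1 was at 196 against 68.7 CPM, the latency protein gene Ltbp4 at 131 against 64.6 CPM and Ltbp1 at 668 against 504 CPM, not called.

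Receptors and ligands of cell-to-cell signalling also held members past the threshold, beside 8.68% higher and 10.5% lower among all genes tested. Notch genes had 3 of 20 higher and 0 lower. The ligand gene Dll4 was at 86.1 CPM with BLA-A, 17.8 with BLU-A, 11.4 with BLA, 16.3 with BLU and 22.4 untreated, Dll1 at 22.0 CPM with BLA-A, 8.26 with BLU-A, 15.7 with BLA, 4.72 with BLU and 6.12 untreated and the glycosyltransferase gene Lfng at 13.8 against 3.47 CPM. The coactivator gene Maml2 was at 563 against 832 CPM and was not called. Wnt genes had 7 of 33 higher and 0 lower, but their median of 0.11 was below 0 with scaling by total counts, at -0.07. Receptor genes of the Frizzled family were the leading members, with Fzd5 at 38.7 against 11.2 CPM, Fzd1 at 7.38 against 1.89 CPM, Fzd7 at 80.4 against 31.0 CPM and Fzd2 at 41.8 against 16.6 CPM. Ctnnb1, which encodes beta-catenin, was at 836 against 565 CPM. ErbB receptors and ligands had 3 of 15 higher, which were Erbb3 (9.45 against 2.00 CPM), Erbb2 (56.0 against 26.6 CPM) and Areg. Erbb4 was lower at 0.820 against 2.34 CPM, and the feedback inhibitor gene Errfi1 was at 507 against 442 CPM. Semaphorins, plexins and neuropilins had 4 of 29 higher and 2 lower. Plxnb2 was at 493 against 155 CPM, Sema4b at 236 against 91.2 CPM, Sema3c at 5.82 against 2.53 CPM and Nrp2 at 1353 against 675 CPM, while Plxna2 was lower at 0.302 against 1.51 CPM and Plxnc1 at 1.29 against 3.13 CPM. Of the ABC transporters 2 of 27 were higher, the sterol exporter gene Abcg1 (23.1 against 9.24 CPM) and Abcb6 (9.02 against 3.02 CPM), and Abce1 was at 267 against 298 CPM. S100 genes had 1 of 10 lower, S100a13 (9.75 against 20.4 CPM), and S100a4 was at 479 against 341 CPM. The ABC share of 7.41% higher and the S100 share of 10% lower lay near those of all genes.

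The mitochondrial genome gave opposite differences for its protein genes and for its ribosomal RNAs, whose levels are what the depletion of ribosomal RNA left. Of 13 protein genes, 7 passed the filter, and 5 of those 7 were higher in BLA-A and 0 lower. ND1, a subunit of complex I, was at 5956 CPM with BLA-A, 805 with BLU-A, 509.7 with BLA, 651 with BLU and 924 untreated, a log2 ratio of 2.89 with an interval of 2.87 to 2.91. COX1, of complex IV, was at 14209 CPM with BLA-A, 6203 with BLU-A, 4053 with BLA, 4695 with BLU and 5865 untreated, ND4 at 1444 CPM with BLA-A, 418 with BLU-A, 236 with BLA, 360.2 with BLU and 411 untreated and CYTB, of complex III, at 4274 CPM with BLA-A, 2084 with BLU-A, 1248 with BLA, 1673 with BLU and 2133 untreated. For these 4 genes BLA-A was the highest library and BLU-A lay near the untreated level. ND5 and ND6 were not called, with log2 ratios of -0.19 and 0.14, and ATP6 was listed at 0 in all 5 libraries. Nuclear genes of the respiratory chain had 11 of 45 higher, 1 lower and a median of 0.45. After centring 7 of 44 were higher. The small complex I genes Ndufa1 (21.6 against 4.08 CPM), Ndufa4 (100.3 against 22.0 CPM) and Ndufa13 (36.5 against 14.2 CPM) and Cox5b of complex IV (69.9 against 22.7 CPM) were higher. Atp5po, a stalk subunit of ATP synthase, was lower at 72.5 CPM with BLA-A, 198 with BLU-A, 122 with BLA, 149.7 with BLU and 209.7 untreated, and Atp5f1b was at 571 against 457 CPM.

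Genes of cell division differed little as lists. Of the mitotic genes 0 of 36 were higher and 2 were lower, with a median of -0.09. The lower genes were Top2a and the kinetochore motor gene Cenpe (229 against 474 CPM), and Mki67, the proliferation marker, was at 1419.9 CPM with BLA-A, 1781 with BLU-A, 1575 with BLA, 1841 with BLU and 2143 untreated. Of the replication genes 3 of 38 were higher (7.89%, beside 8.68% of all genes) and 2 lower (5.26%, beside 10.5%). The helicase gene Mcm5 (193 against 83.4 CPM), the polymerase gene Pold1 (56.2 against 24.8 CPM) and the transcription factor gene E2f1 (45.3 against 20.0 CPM) were higher, while the thymidylate synthase gene Tyms (70.4 against 162 CPM) and Gins3 (11.6 against 24.9 CPM) were lower. The medians of the replication (-0.07), splicing (-0.02) and ribosome biogenesis (-0.08) lists lay near the median of all genes and were above 0 with DESeq2 size factors. Of the splicing factor genes 1 of 41 was higher, Ptbp1 (461 against 223 CPM), and 2 were lower, Hnrnpa2b1 and the kinase gene Clk1 (74.1 against 167 CPM), with Srrm2 at 1408 against 1578 CPM. In the ribosome biogenesis list Fbl, the fibrillarin gene, was the called member (23.1 against 9.09 CPM), and Ncl, which encodes nucleolin, was at 1069 against 1647 CPM. Of 17 snoRNA host genes 2 were lower (11.8%, beside 10.5% of all genes). They were Snhg16 (2.89 against 8.26 CPM) and Snhg1 (18.1 against 43.5 CPM), and Rack1 was at 649 against 609.8 CPM.

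Histone and ribosomal protein genes spread widely in both directions. Both families have near-identical copies, and the division of reads between copies is uncertain. Of 53 tested replication-dependent histone genes 21 were higher in BLA-A and 4 lower, at a median of 0.66 (0.35 after centring). After centring 19 were higher and 9 lower. H3c7 was at 151 CPM with BLA-A, 21.1 with BLU-A, 10.2 with BLA, 8.35 with BLU and 25.7 untreated, H3c3 at 89.0 against 12.3 CPM and H3c8 at 74.9 against 12.4 CPM. H2ac8 was at 6.99 CPM with BLA-A, 111 with BLU-A, 53.3 with BLA, 64.7 with BLU and 114 untreated and H4c4 at 459 CPM with BLA-A, 1310.3 with BLU-A, 631 with BLA, 795 with BLU and 1401 untreated, and H2ac6 (9.15 against 25.1 CPM) and H2ac13 (11.5 against 28.2 CPM) were the other lower genes. The summed level of the histone list was 5290.4 CPM with BLA-A and 4636 with BLU-A. Of 79 cytosolic ribosomal protein genes 12 were higher and 18 lower, at a median of -0.24. Rps28 was at 29.8 CPM with BLA-A, 2.83 with BLU-A, 3.01 with BLA, 3.23 with BLU and 3.49 untreated, Rpl39 at 84.6 against 10.5 CPM, Rps10 at 157 against 20.8 CPM and Rpl37 at 97.5 against 15.3 CPM. Rps23 was at 2.16 CPM with BLA-A, 33.6 with BLU-A, 14.7 with BLA, 20.0 with BLU and 40.1 untreated, Rpl3 at 10.9 against 121 CPM, Fau at 20.6 against 119.6 CPM and Rpl26 at 4.27 against 20.3 CPM. Rpl4 was at 1031 against 1695 CPM and was not called. The sum over the ribosomal protein list was nearly equal, 9994 CPM with BLA-A and 9932 with BLU-A.

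Genes of cell death and the p53 response held a few large differences. Of the p53 targets 4 of 21 were higher and 1 was lower. Cdkn1a, the cell cycle inhibitor p21, was at 69.2 CPM with BLA-A, 20.9 with BLU-A, 20.4 with BLA, 22.3 with BLU and 21.0 untreated. Phlda3 was at 15.7 against 2.26 CPM, Zmat3 at 35.4 against 12.8 CPM and Bax, an effector of mitochondrial apoptosis, at 25.5 CPM with BLA-A, 5.96 with BLU-A, 6.42 with BLA, 6.97 with BLU and 7.77 untreated. Gadd45a, a growth arrest gene, went the other way at 16.1 CPM with BLA-A, 95.2 with BLU-A, 83.7 with BLA, 77.0 with BLU and 76.7 untreated, a log2 ratio of -2.53. Tnfrsf10b was at 93.1 against 48.6 CPM and was not called. Bax and Bak1 (105 against 27.5 CPM), the effectors of the Bcl2 family, were the 2 members of 13 called higher, and the protective Bcl2l1 was at 162 against 181 CPM. The median of the Bcl2 list was -0.04, and above 0 with DESeq2 size factors. Caspases and death receptors had 2 of 26 higher, near the share of all genes (7.69% beside 8.68%). They were the receptor gene Tnfrsf1a (68.5 against 26.8 CPM) and the cytochrome c gene Cycs (2.20 against 0.717 CPM). The median of this list, 0.03, was below 0 with scaling by total counts. In the circadian clock list 3 of 19 were higher, Per1 (46.5 against 15.0 CPM), Hlf (1.51 against 0.415 CPM) and Nr1d1 (36.7 against 18.0 CPM), and 2 were lower, Rora (0.388 against 3.32 CPM) among them, with Clock at 136 against 136 CPM. The share lower, 10.5%, was that of all genes, and the median, 0.09, was also below 0 with scaling by total counts.

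Both lists of very long genes had medians well below that of all genes. Long neuronal genes, most of them at low levels in these libraries, had 0 of 35 higher, 23 lower and a median of -1.45. Grm7, described above, had the lowest ratio of the list at -6.98. The potassium channel subunit gene Dpp6 was at 0.0863 CPM with BLA-A, 4.98 with BLU-A, 3.23 with BLA, 7.08 with BLU and 5.70 untreated and the adhesion gene Ntm at 0.0431 CPM with BLA-A, 3.06 with BLU-A, 0.587 with BLA, 5.44 with BLU and 9.98 untreated, on 2 counts and 1 count in BLA-A. Tenm4, of the same list, was at 366 CPM with BLA-A, 339 with BLU-A, 461 with BLA, 395 with BLU and 212 untreated and was not called. Genes at common fragile sites had 0 of 30 higher, 15 lower and a median of -1.06. The tumour suppressor gene Fhit was at 3.11 CPM with BLA-A, 15.6 with BLU-A, 8.63 with BLA, 15.1 with BLU and 17.5 untreated, Thsd7b at 5.56 CPM with BLA-A, 25.9 with BLU-A, 10.0 with BLA, 14.0 with BLU and 25.2 untreated and Auts2 at 0.475 CPM with BLA-A, 6.11 with BLU-A, 2.68 with BLA, 3.19 with BLU and 10.7 untreated. Pard3, with the highest mean of that list, was at 428 against 509.9 CPM and was not called. After centring by length and GC content the medians of these lists were -0.86 and -0.59, with 13 and 10 members lower. Where the mean of the nanoparticle libraries had to reach 10 CPM, the median of the fragile site list was -0.33. Cadherins and protocadherins had 5 of 29 higher and 13 lower, and 5 higher and 6 lower after centring. Fat1 was at 1145 CPM with BLA-A, 528 with BLU-A, 564 with BLA, 606 with BLU and 584 untreated, Pcdh1 at 69.4 against 19.6 CPM, Cdh17 at 37.6 against 15.1 CPM and Fat2 at 2.72 against 0.755 CPM. Pcdh15 was at 9.45 CPM with BLA-A, 38.4 with BLU-A, 35.2 with BLA, 37.7 with BLU and 45.0 untreated, Cdh6 at 0.129 against 10.7 CPM, Cdh8 at 0.129 against 2.08 CPM and Cdh4 at 0.259 against 2.30 CPM. The median of this list, -0.38, depended on members at low levels and was 0.52 where both nanoparticle libraries had to reach 1 CPM. Nuclear long noncoding RNAs had 0 of 11 higher and 3 lower, which were Meg3, the microRNA host gene Mir100hg (295 CPM with BLA-A, 719 with BLU-A, 861 with BLA, 807 with BLU and 483 untreated) and Firre (21.1 against 45.4 CPM). Neat1, the scaffold of paraspeckles, was at 242 CPM with BLA-A, 403 with BLU-A, 667 with BLA, 475 with BLU and 193 untreated.

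The ratios moved with gene length and base composition across the whole transcriptome. Gene models of GENCODE M39 were matched by symbol to 92.7% of the genes tested and 91.0% of those called. The median gene length was 11345 bases for genes called higher, 41909 bases for genes called lower and 27178.5 bases for all. Genes over 100 kb made up 3.52% of those called higher and 34.3% of those called lower, against 16.1% of all. The median GC content of the exons was 53.2% in the higher and 47.6% in the lower genes, against 48.9% in all. Among protein-coding genes with a mean of at least 10 CPM, the median log2 ratio over 5 equal classes went from 0.37 in the shortest genes to -0.07 in the longest, and from -0.13 in the class with the lowest GC content to 0.43 in that with the highest. For BLA over BLU the medians by GC content lay between -0.07 and 0.02 and those by length between -0.11 and 0.03. Over 8991 genes Spearman's rho was -0.22 with gene length and 0.32 with GC content for the nanoparticles, and 0.16 and 0.11 for the extracts. Genes share length, GC content and libraries, so these correlations are descriptions. Single-exon protein-coding genes had a median of 0.49, with 42 of 154 higher and 7 lower, and of 2512 long noncoding RNAs 200 were higher and 374 lower. Reads had been counted on whole genes, introns included. Centring also took the members called higher from 4 to 2 for actin cytoskeleton and SRF targets, from 3 to 1 for YAP and TEAD targets and from 5 to 3 for MHC class I presentation. AP-1 and immediate early genes went from 13 to 9, and sterol and fatty acid synthesis from 11 to 8 with 1 lower. The unfolded protein list went from 10 to 8 and the DNA replication list from 3 to 1. Some lists rose, such as matrix proteases and their inhibitors from 10 to 12 and glycolysis and hypoxia response from 11 to 12, each with 1 lower. Beyond the centred values given beside the lists, the part of length and base composition in the differences was not tested, and that of the unequal Gm26917 share was not tested beyond the scaling without it.

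**Figure D4:**
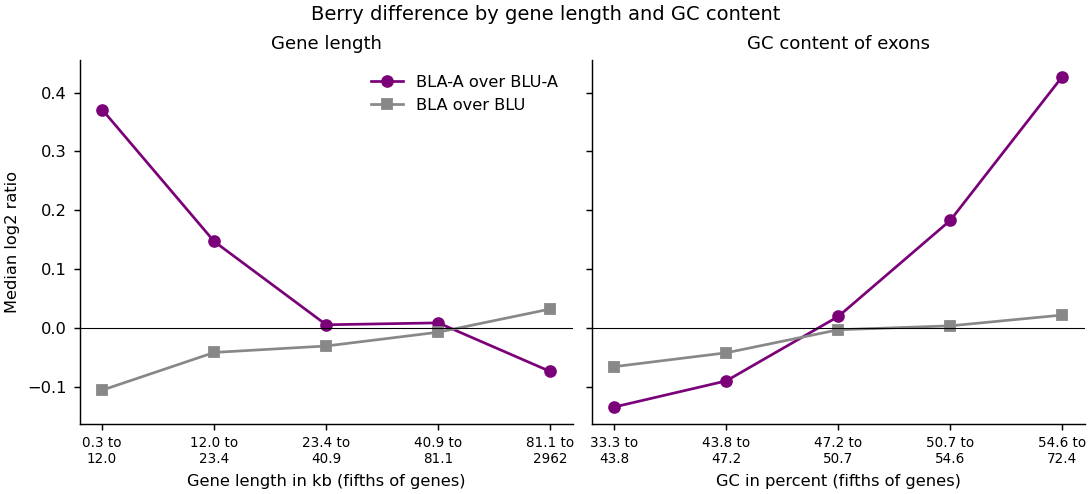
Median log2 ratio (vertical axis) in 5 equal classes of protein-coding genes with a mean of at least 10 CPM, by gene length in kb (left) and by GC content of exons in percent (right). Purple circles are BLA-A over BLU-A and grey squares BLA over BLU. The nanoparticle medians fell from 0.37 to -0.07 with length and rose from -0.13 to 0.43 with GC content, while those of the extracts stayed between -0.11 and 0.03.

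The berry difference was also measured without gold, as BLA over BLU, in libraries that share no reads with the nanoparticle pair. By the same rule 1866 genes (10.6%) were called there, 747 higher (4.23%) and 1119 lower (6.34%) in BLA. The median size of the log2 ratio was 0.48 for the nanoparticles and 0.26 for the extracts. Genes called higher in both comparisons numbered 76, which was 4.96% of the nanoparticle list and 10.2% of the extract list. Genes called lower in both numbered 250, 13.5% and 22.3% of the lists. The 4.96% and 13.5% stand beside 4.23% higher and 6.34% lower among all genes in the extract comparison. Opposite calls were made for 73 genes higher in BLA-A and lower in BLA, and for 97 genes the other way round. Pearson's r of the 2 log2 ratios across 17647 genes was 0.066. Among 9797 genes with a mean of at least 10 CPM over the 4 libraries, 845 were higher and 467 lower in the nanoparticle comparison and 29 higher and 25 lower in the extract comparison. Of these, 9 were higher in both, 4 lower in both, and 5 and 4 were opposite, with r at 0.016. Of the genes higher in the nanoparticles, 1.07% were higher and 0.592% lower in the extracts. Of those lower, 0.857% were lower and 0.857% higher in the extracts. Among all 9797 genes, 0.296% were higher and 0.255% lower in the extracts. Across genes the ratios of the nanoparticles and of the extracts were thus hardly correlated. Over all genes tested, those lower in the nanoparticles were lower in the extracts more often (13.5%) than all genes were (6.34%). With a mean of at least 10 CPM they were lower and higher in the extracts equally often, at 0.857% each.

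The few shared genes were set out individually. Gm17330, a predicted gene, had log2 ratios of 3.44 in the nanoparticles and 1.63 in the extracts. Tbc1d9, of a family that regulates Rab proteins, was at 2.74 and 1.14, P4ha2 at 1.84 and 1.08, and Dll1 at 1.36 and 1.63. Edem2, which takes misfolded proteins toward degradation, was at 1.21 and 1.04, and Apc2 at 1.08 and 1.03. For these 6 genes both blackberry libraries were above both blueberry libraries. Lower in both were Myom2 (-7.84 and -1.38), Grm7 (-6.98 and -1.15), Gm40271 (-5.57 and -1.14) and Bc1, a small noncoding RNA, at 11.2 CPM with BLA-A, 47.1 with BLU-A, 18.0 with BLA, 37.4 with BLU and 43.6 untreated. Myom2, Grm7 and Gm40271 reached the required mean of 10 CPM over the 4 libraries through BLU-A alone. Their extract ratios rest on 0, 26 and 52 counts in BLA and 22, 75 and 133 in BLU. Gm17330 reached that mean mainly through BLA-A, with 166 counts in BLA and 45 in BLU. The genes that went in opposite directions included Adgrl3, an adhesion receptor gene, which was at 9.36 CPM with BLA-A, 25.0 with BLU-A, 161 with BLA, 17.3 with BLU and 17.4 untreated, and Tenm3, at 1.85 CPM with BLA-A, 12.1 with BLU-A, 44.2 with BLA, 10.2 with BLU and 24.2 untreated. Both stood out as high in BLA. H3c1, H2bc3 (71.9 against 19.8 CPM) and Efnb1, an ephrin gene with log2 ratios of 1.36 in the nanoparticles and -1.31 in the extracts, were higher in BLA-A than in BLU-A and lower in BLA than in BLU. Kalrn (16.4 CPM with BLA-A, 7.28 with BLU-A, 9.69 with BLA, 23.5 with BLU and 13.8 untreated) shared that pattern, and Tcp11l2 (7.42 CPM with BLA-A, 16.7 with BLU-A, 29.0 with BLA, 11.7 with BLU and 14.4 untreated) had the reverse.

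**Figure D5:**
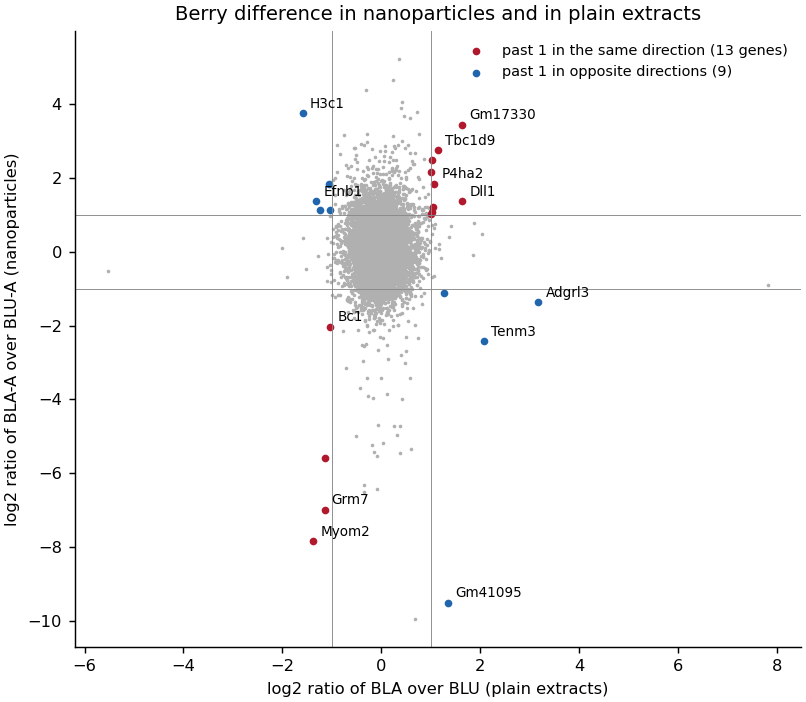
Log2 ratio of BLA over BLU (horizontal axis) and of BLA-A over BLU-A (vertical axis) for 9797 genes with a mean of at least 10 CPM over the 4 libraries, with lines at 1 and -1. The 13 red genes were past 1 in the same direction and the 9 blue genes in opposite directions, and the cloud is taller than it is wide.

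Further genes of interest to the study's account of these treatments completed the comparison. The secreted factor genes Spp1 (2814 against 1846 CPM) and Lgals1 (2738 against 1389.6 CPM) were higher in BLA-A without passing the threshold, at 0.61 and 0.98. Tpt1, a translationally controlled tumour protein gene, was called lower, at 95.3 CPM with BLA-A, 351 with BLU-A, 162 with BLA, 204 with BLU and 344 untreated. The neuronal genes Ctnna2 (0.216 against 1.40 CPM) and Rbfox1 (1.29 against 4.04 CPM) were also called lower. The large scaffold gene Ahnak (5385 against 4541 CPM), the signalling adaptor gene Ywhaz (660.3 against 718 CPM), the tumour suppressor gene Wwox (251 against 237 CPM), Maml3 (527 against 688 CPM), Nhej1 (9.71 against 11.8 CPM), Sema6c (4.44 against 3.58 CPM), Hdac9 (2.63 against 3.09 CPM), Mapk10 (0.863 against 1.36 CPM), Agtr1a (0.863 against 1.40 CPM) and Gm53967 (4.96 against 6.64 CPM) were within the threshold. Dkk2 held 1 count in BLA-A and 14 in BLU-A, a log2 ratio of counts with an interval of -9.02 to -0.90, while its ratio with the pseudocount, -0.92, was within the threshold. Pik3cg held 0 and 4 counts and Dsg3 2 and 0, near or below the floor of 3 counts at this depth.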

How the data were processed

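Bulk RNA-seq of 4T1 cells was deposited by the authors as raw counts of reads per gene in 15 columns, 3 for each of 5 conditions. Per the study's methods, the authors depleted ribosomal RNA during library preparation, trimmed the reads, aligned them to GRCm39 with STAR and counted them in OmicsBox on whole gene features, introns included and strand specific, and the 3 columns of a condition are subsets of the reads of 1 library. DESeq, DESeq2 1.36.0 and GRCm39 are also named in the submitters' processing notes, and the study's methods give DESeq2 for normalization and differential expression. The deposited tables of the authors' own comparisons (fold changes, p-values and enrichment scores against untreated cells) were not used.

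The 3 columns of each condition, as assigned by the labels, were averaged, so that each of 2 libraries entered the comparison once. Counts were scaled with TMM (edgeR 4.0.16, R 4.3.3) and expressed as CPM, with library totals of 25613778 (BLA-A) and 25721345 (BLU-A). Genes that reached 1 CPM in any of the 5 libraries were kept, 0.5 CPM was added, and a gene was called where the log2 ratio was over 1 in size. No p-value was computed, because the columns are not replicates. Counting intervals are 95% exact intervals of the ratio of counts, and the floor for 0 counts was 3 counts. The steps were tested on simulated counts with planted ratios.

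The genes described were the 12 with the largest and the 12 with the smallest ratio at a mean of at least 10 CPM, the 8 with the largest CPM difference in each direction, up to 4 called members in each direction and the most abundant member of each of 53 gene lists, genes with at least 100 counts in one library and at most 3 in the other, genes called in both berry comparisons, and genes the study names. Ldha, Creld2, Pdia6, Bnip3, Hsp90b1, Ddit3, Asns, Phgdh, Psat1, Nupr1, mt-Rnr2, ND5, ND6, Rpph1, Epcam, Krt5, Krt14 and Elf5 fell outside this rule and were added after their values were seen. Some genes that this rule selects are not reported here. Members, lists and rules were chosen with earlier results of these data known. Gene positions, lengths and GC content are from GENCODE M39 on GRCm39, and promoters are from RefSeq on GRCm38.p6. Alternatives were scaling by total counts, with and without Gm26917, or by DESeq2 size factors (DESeq2 1.42.0), other filters, pseudocounts and thresholds, and leaving out each column. Python 3.11.15 with pandas 2.3.3 and matplotlib 3.10.9 was used.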

Additional observations from a re-analysis of the deposited data

Results flagged for a closer look

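In 9 genes with a mean of at least 10 CPM over the 4 libraries, the log2 ratio of blackberry over blueberry was past 1 in size in opposite directions with and without gold, which is why they are listed here. With 1 library per condition the difference between the ratios was not tested. Higher in BLA-A than in BLU-A and lower in BLA than in BLU were H3c1 (3.74 for the nanoparticles and -1.59 for the extracts), H2bc3 (1.84 and -1.05), the ephrin gene Efnb1 (1.36 and -1.31), Kalrn (1.12 and -1.24) and the lysosomal protease gene Ctsc (1.12 and -1.03). The reverse was measured for Gm41095 (-9.49 and 1.36), Tenm3 (-2.42 and 2.07), Adgrl3 (-1.37 and 3.18) and Tcp11l2 (-1.12 and 1.27). Gm41095 reached the mean of 10 CPM through BLU-A alone, at 609 CPM. Its extract ratio rests on 39 counts in BLA and 7 in BLU. H3c1 reached that mean mainly through BLA-A, at 37.5 CPM, with 9 counts in BLA and 55 in BLU. H3c1 and H2bc3 are histone genes with near-identical copies, and the division of their reads is uncertain.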

How the results depend on the processing

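No paired analysis was possible because the replicate numbers mark subsets of reads drawn from 1 library per condition, so no test or replicate block could be fitted. Leaving out the same-numbered column of every condition gave 3371 to 3405 genes called, 1521 to 1534 higher and 1850 to 1874 lower in BLA-A, and 73 to 81 higher and 250 to 254 lower in both berry comparisons, which measures only the sampling of reads.

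The counts depended most on low genes. With 1 CPM required in both nanoparticle libraries 2092 genes were called, 1277 higher and 815 lower, and 44 and 20 were shared with the extracts. With a mean of at least 10 CPM the counts were 1360 called, 926 higher, 434 lower, and 12 and 6 shared. A pseudocount of 2 CPM gave 1731, 1093 higher, 638 lower, and 6 and 14 shared, and a pseudocount of 0.1 CPM gave 4552, 1802 higher, 2750 lower, and 165 and 657 shared. A log2 threshold of 2 left 401 genes, 217 higher and 184 lower. The other scalings and filters kept the counts within 1.5 times of those reported, at 2661 to 3736 called, but not the split between directions. DESeq2 size factors gave 1751 higher and 1623 lower, against 1085 and 2468 with total counts.

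The median of the 35 tested long neuronal genes ran from -1.83 with a pseudocount of 0.1 CPM to -0.85 with one of 2 CPM. Of the list medians computed under an alternative, 23 left the order-statistic interval of the reported median or, for short lists, changed sign, and 702 did not. Of the log2 ratios of named genes, 105 crossed the threshold or changed sign while leaving their counting interval, and 3504 did not. Of 232 named genes called, 203 were called in the same direction with total counts, 223 with DESeq2 size factors and 197 with a pseudocount of 2 CPM. Centring by gene length and GC content, and leaving out mitochondrial, ribosomal protein and abundant small RNA genes, were chosen after seeing the data. At this depth 3 counts correspond to 0.129 CPM for BLA-A and 0.113 for BLU-A, and differences below that were not detectable. Biological variation between cultures was not measured.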
